A study of Rattus norvegicus with 20 samples.

Results

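The transcripts described here encode the subunits of the oxidative phosphorylation machinery, and they were followed in rat liver over 5 doses of tricresyl phosphate (TCP), an organophosphate ester used as a plasticizer and flame retardant. A gene was a member if its symbol began with Ndufa, Ndufb, Ndufc, Ndufs, Ndufv, Uqcr, Cox4, Cox5, Cox6, Cox7, Cox8 or Atp5, or was Sdha, Sdhb, Sdhc, Sdhd or Cyc1. The rule gave 87 members among the 14217 genes measured, and where several probe sets measured a gene, the one of highest mean was taken. Of these, 79 encode structural subunits, with 36 in complex I, 4 in complex II, 8 in complex III, 16 in complex IV and 15 in the ATP synthase. The prefixes also caught 6 complex I assembly factors of the Ndufaf series, the ATP synthase inhibitor Atp5if1 and the pseudogene Cox6c-ps1, which are described apart from the subunits. A further 7 probe sets that match these prefixes are shared with another gene (those of Atp5mc1, Atp5mc2, Cox7a2, Uqcrb, Ndufs5 and Ndufa10, and 1 probe set of Cox5a), so their values were not used. The subunits encoded in mitochondrial DNA were not analysed here.

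All 20 animals were male Harlan Sprague Dawley rats gavaged once daily on 4 consecutive days, and the liver was taken on day 5. The labels used here state no age. The 5 control rats received the corn oil vehicle alone. The same vehicle carried the TCP, at 62.3, 124.5, 248.6, 497.3 or 994.6 mg per kg in groups of 3 rats. Each rat gave 1 array of pieces of the left liver lobe, a bulk tissue in which fewer cells of a type and less RNA per cell cannot be told apart.

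Oxidative phosphorylation couples the oxidation of NADH and succinate to ATP synthesis in the inner mitochondrial membrane. Complexes I and II pass electrons to coenzyme Q, complex III passes them on to cytochrome c, and complex IV hands them to oxygen. Complexes I, III and IV pump protons, and the ATP synthase uses the resulting gradient. In hepatocytes this chain supplies the ATP for gluconeogenesis and urea synthesis, and it reoxidizes the cofactors of fatty acid oxidation.

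The values are log2 expression values, and a difference of 1 means a doubling of signal. Correlations between arrays ran from 0.987 to 0.995 within groups and from 0.983 to 0.995 between groups. Replicate 1 of 994.6 mg/kg stood apart, with a score of 37.1 on the first principal component of all genes (20.1% of the variance) and scores of the other 19 arrays between -14.1 and 9.14. The 3' minus 5' difference of the beta-actin control transcript, a measure of RNA integrity, was lower in treated than in control arrays by 0.43 on the log2 scale (exact two-sided permutation test over arrays, p = 0.0168, adjusted p = 0.0335 over 2 transcripts). For GAPDH the difference was -0.40 (exact two-sided permutation p = 0.0719). Replicate 2 of 124.5 mg/kg had a GAPDH value of 2.58, and every other treated array lay below the lowest control array, at 1.13. At 994.6 mg/kg, 4 of 5 red blood cell markers were called lower, with a mean level of the list between 7.58 and 8.58 in treated arrays and between 9.24 and 9.38 in control arrays. The mean level of 6 hepatocyte markers lay between 14.25 and 14.39 at 994.6 mg/kg and between 14.43 and 14.47 in control, with none of the 6 called. Among the other lists, 1 of 6 stellate cell markers and 1 of 3 cholangiocyte markers were called higher, and none of 5 macrophage, 4 endothelial, 2 neutrophil, 4 lymphocyte and 4 skeletal muscle markers was called. The part of cell composition in the results below was not tested.

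With each gene measured by its probe set of highest mean, no member passed the test against control at any dose. A second probe set of Uqcrc2 was called at 994.6 mg/kg, and between 1 and 14 members were called under 6 of 18 alternative settings. The 14 were called with array weights, where more of all genes were called as well. For the other settings the share of all genes called is not given, so these counts do not set the members apart. None of the 87 members was called against control at 994.6 mg/kg (limma, adjusted p under 0.05 over all genes), where 4.47% of all genes were called. The median change of the members was 0.02 on the log2 scale, against -0.01 for all genes, and the single changes ran from -0.23 for Cox7a1 to 0.37 for Ndufaf1. At an unadjusted p under 0.05 there were 12 of 87 members, where 18.6% of all genes lay. The sign of the members' median was not stable, as it was -0.01 without replicate 1 of 994.6 mg/kg.

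At the lower doses, too, none of the 87 members was called by limma. The share of all genes called was 0% at 62.3 mg/kg, 0.00703% at 124.5 mg/kg, 0.0563% at 248.6 mg/kg and 0.732% at 497.3 mg/kg. At an unadjusted p under 0.05 there were 2 members at 62.3 mg/kg (2.45% of all genes), 2 at 124.5 mg/kg (5.04%), 5 at 248.6 mg/kg (6.65%) and 10 at 497.3 mg/kg (12.2%). The members' median change was 0.01, 0.03, 0.04 and 0.04 on the log2 scale at the 4 lower doses in ascending order. All dose comparisons share the 5 control arrays, so their values are not independent of each other.

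The intervals around these changes were narrow. At 994.6 mg/kg the 95% interval of the change lay within a 1.5-fold difference in either direction for 78 of 79 subunits, against 85.2% of all genes, and within a 2-fold difference for 79 of 79. The exception was Uqcrc2, whose interval ran from 0.13 to 0.60. At each of the lower doses the intervals of 79 of 79 subunits lay within 1.5-fold, against 93.8% of all genes at 62.3 mg/kg and 89% at 497.3 mg/kg. These transcripts were also less variable than most, with a median within-group SD of 0.088 for the subunits and 0.150 for all genes. The mean value of 72 of 79 subunits lay above 7.52, the median of all genes.

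**Figure D1:**
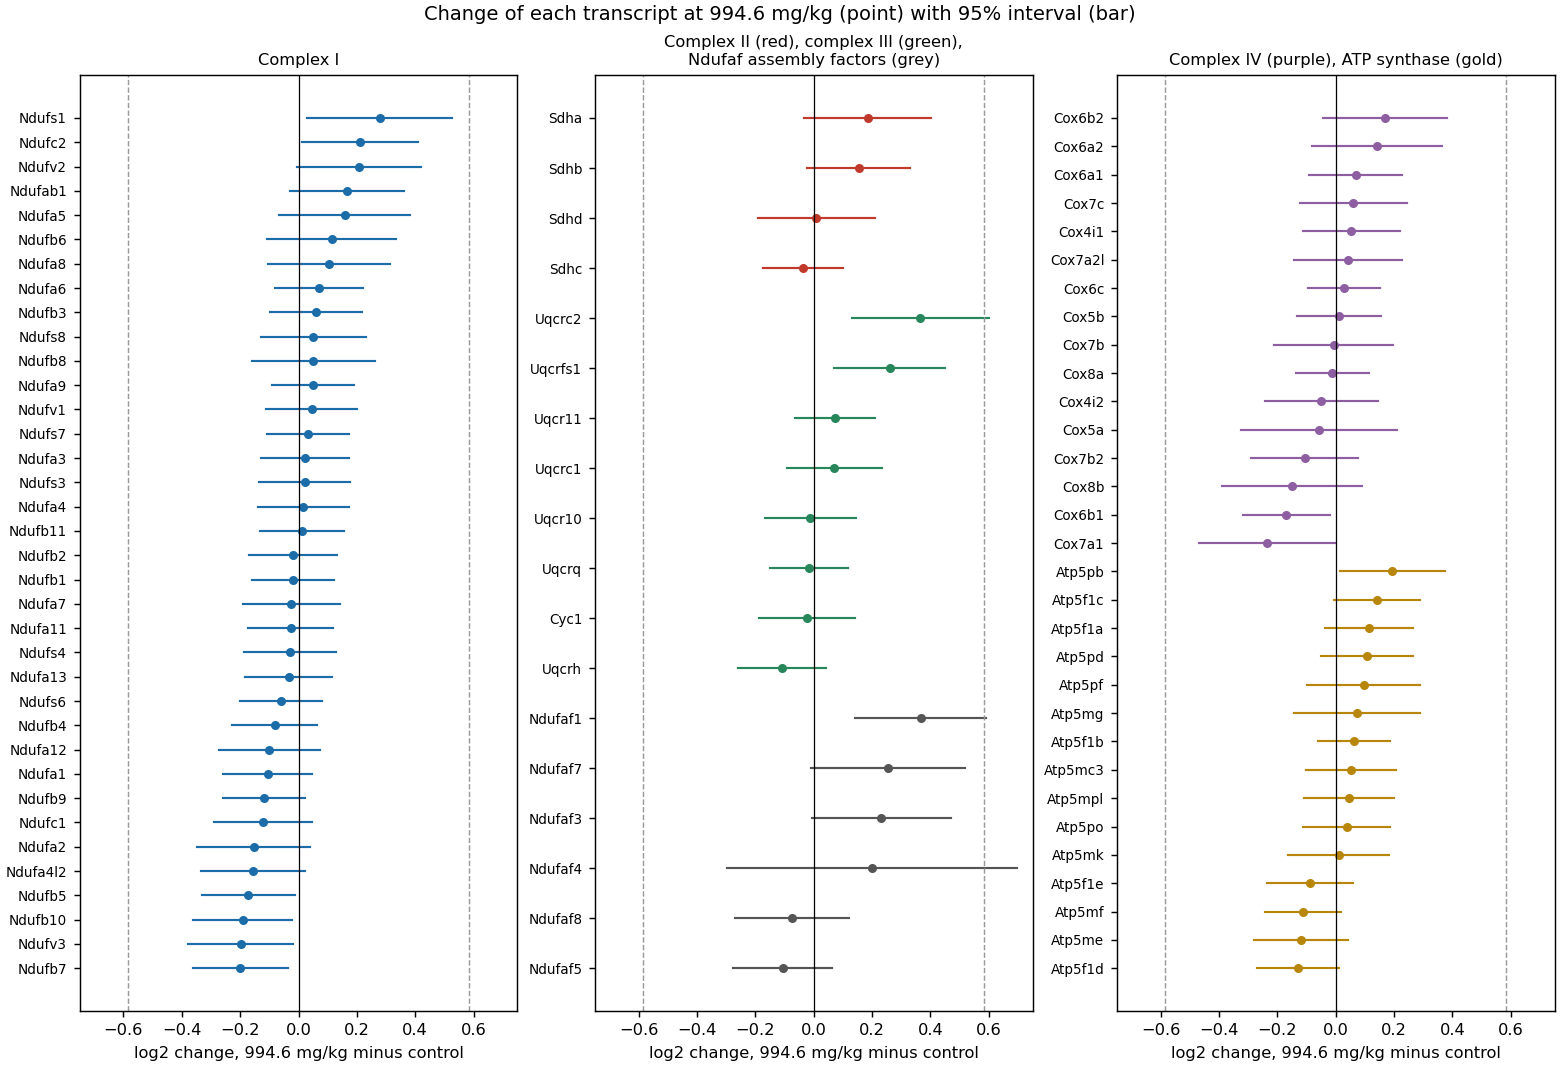
Change of each subunit and Ndufaf transcript at 994.6 mg/kg relative to control (log2 scale, point) with its 95% interval (bar), grouped by complex, with dashed lines at a 1.5-fold difference. The intervals of 78 of 79 subunits lie inside the dashed lines, and that of Uqcrc2 crosses the upper one.

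The medians of the complexes lay close together. At 994.6 mg/kg the median change was -0.0028 for the 36 complex I subunits, with 18 above 0 and 18 below. Ndufa4 and Ndufa4l2 are counted there by their symbols, and without them 17 of 34 were above 0. The median was 0.08 for the 4 complex II subunits, 0.03 for the 8 of complex III and 0.0023 for the 16 of complex IV. For the 15 subunits of the ATP synthase it was 0.05, with 11 above 0. The 6 Ndufaf factors had a median of 0.22, with 4 above 0, and ranged from -0.11 to 0.37. Their median was 0.0004 without replicate 1 of that dose, with 3 of 6 above 0. The medians of complexes I, II, III, IV and the ATP synthase without that array were -0.04, 0.03, 0.04, -0.01 and 0.03. The Ndufaf median over all arrays was 0.08, 0.22, 0.20 and 0.03 at 62.3, 124.5, 248.6 and 497.3 mg/kg, so 497.3 mg/kg gave the lowest of the 5 doses.

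**Figure D2:**
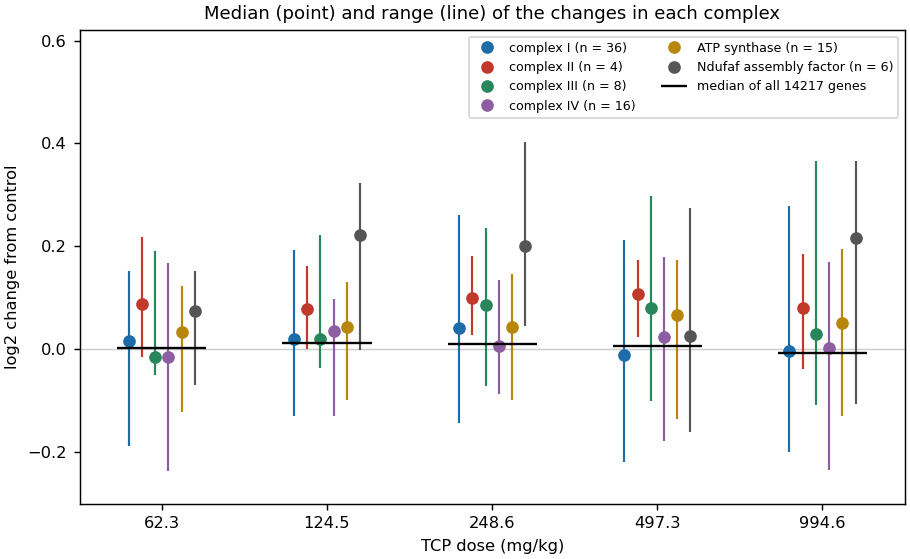
Median (point) and range (line) of the log2 change from control of the members of each complex at the 5 doses, with the median of all 14217 genes as a black line. The medians of the 5 complexes stay between -0.02 and 0.11 at every dose, and the Ndufaf median of 0.22 at 994.6 mg/kg is 0.0004 without replicate 1 of that dose.

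In complex I, the entry point of electrons from NADH, the largest changes at 994.6 mg/kg were those of Ndufs1 and Ndufc2. Ndufs1, the large iron-sulphur subunit of the peripheral arm, had log2 values of 11.14, 11.34, 11.39, 10.94 and 11.16 in control arrays. It had 11.51, 11.43 and 10.99 at 62.3 mg/kg, 11.40, 11.45 and 11.31 at 124.5 mg/kg, and 11.54, 11.45 and 11.38 at 248.6 mg/kg. The 2 highest doses gave 11.55, 11.44 and 11.24 at 497.3 mg/kg, and 11.64, 11.39 and 11.39 at 994.6 mg/kg. Replicate 1 lay above all control arrays at every dose, while the lowest array of every dose fell inside the control range. The change at 994.6 mg/kg was 0.28 ± 0.12 (SE), with an adjusted p of 0.202. Ndufc2, an accessory subunit of the membrane arm, differed from control by 0.21 ± 0.09 (adjusted p = 0.237).

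The 6 measured core subunits belong to the peripheral arm, and most of them carry the flavin or iron-sulphur clusters. They were compared with the 30 accessory subunits, in a grouping made after the values had been seen. The core subunits Ndufs1, Ndufs3, Ndufs7, Ndufs8, Ndufv1 and Ndufv2 were all above 0 at 994.6 mg/kg, with a median of 0.05, and none was called. Of the 30 accessory subunits 12 were above 0 and 18 below, with a median of -0.03. Without Ndufa4 and Ndufa4l2 there were 28, with 11 above 0 and 17 below. At 497.3 mg/kg the core median was 0.16 with 6 of 6 above 0, against -0.03 for the accessory subunits with 10 of 30 above 0. The difference between the 2 groups was not tested.

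Accessory subunits made up the low end of complex I. Ndufb7, which sits on the intermembrane side of the membrane arm, had 11.60, 11.64 and 11.55 at 994.6 mg/kg, against 11.79, 11.84, 11.73, 11.83 and 11.80 in control. Ndufb10, another subunit of the membrane arm, had 11.42, 11.43 and 11.41 at 994.6 mg/kg, against 11.56, 11.67, 11.70, 11.49 and 11.63 in control. In both genes all 3 treated arrays lay below all 5 control arrays. The changes were -0.20 ± 0.08 for Ndufb7 (adjusted p = 0.162) and -0.19 ± 0.08 for Ndufb10 (adjusted p = 0.199), and neither passed the test. With array weights both were called lower, and with quantile normalization Ndufb10 was. Ndufb7 and Ndufb10 were picked out after their values had been seen.

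Ndufv3, a small subunit at the tip of the peripheral arm, was measured by 2 probe sets of opposite sign, neither of them called. The probe set with the higher mean differed from control by -0.20 ± 0.09 at 994.6 mg/kg and the other by 0.24 ± 0.09 (adjusted p over all probe sets 0.240 and 0.153). No direction can therefore be given for this gene, which was also singled out after its values were seen.

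Ndufa4, named as a complex I subunit but found in complex IV, differed from control by 0.02 ± 0.08, and its paralog Ndufa4l2 by -0.16 ± 0.09 (adjusted p = 0.938 and 0.347). With array weights in limma, where more of all genes were called, Ndufa4l2 was called lower (-0.19, adjusted p = 0.0382). Its mean value was low, at 6.01 at 994.6 mg/kg and 6.16 in control, below the median of all genes at 7.52.

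Complex II, the succinate dehydrogenase shared with the citric acid cycle, is wholly encoded in the nucleus. Sdha, the flavoprotein that oxidizes succinate, had 11.81, 11.56 and 11.60 at 994.6 mg/kg, against 11.53, 11.47, 11.71, 11.15 and 11.49 in control. The groups overlapped, and the change was 0.18 ± 0.10 (adjusted p = 0.365). Sdhb, the iron-sulphur subunit, differed from control by 0.15 ± 0.09, with an adjusted p of 0.356. The membrane anchors Sdhc and Sdhd differed from control by -0.04 ± 0.07 and 0.01 ± 0.10. A second probe set of Sdhd differed by 0.14 ± 0.09 (limma adjusted p = 0.479 over all probe sets). At the lower doses Sdha was above control by 0.22, 0.16, 0.18 and 0.17, close to its value at the highest dose. For all 4 genes the 95% interval at 994.6 mg/kg lay within a 1.5-fold difference.

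Complex III, the cytochrome bc1 complex, held the subunit with the largest change. Uqcrc2, a core protein of the matrix side, had 11.70, 11.71, 11.83, 11.49 and 11.60 in control. It had 11.99, 11.92 and 11.66 at 62.3 mg/kg, 11.90, 11.86 and 11.90 at 124.5 mg/kg, and 11.95, 11.90 and 11.69 at 248.6 mg/kg. At 497.3 mg/kg it had 12.12, 11.94 and 11.83, and at 994.6 mg/kg 12.32, 11.93 and 11.84. All arrays of the 2 highest doses lay above all control arrays, the lowest of them by less than 0.01. At 994.6 mg/kg the change was 0.37 ± 0.11 (adjusted p = 0.0661), which missed the threshold. Without replicate 1 of that dose it was 0.22 with an adjusted p of 0.442. The gene passed the test in 6 of 17 alternative settings. These were the mean of both probe sets (0.63, adjusted p = 0.0298), quantile normalization (0.0326), genes above the median mean value only (0.0443), trended robust eBayes (0.04997), array weights (0.0146) and the fit without replicate 3 of 994.6 mg/kg (0.0378).

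A second probe set of Uqcrc2 was called higher. It had 8.89, 8.32 and 8.14 at 994.6 mg/kg, against 7.48, 7.20, 8.15, 7.33 and 7.58 in control. Control replicate 3 lay just above the lowest treated array, and the other 4 lay below all 3. Its change was 0.90 ± 0.24, with a limma adjusted p of 0.0422 over all probe sets. With 1 array left out, that call was kept only without replicate 3 of either group and lost in the other 6 of 8 fits. The change was 0.68 without replicate 1 of 994.6 mg/kg, with an adjusted p of 0.292.

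Uqcrfs1, the Rieske iron-sulphur protein that passes electrons to cytochrome c1, had 12.66, 12.58 and 12.53 at 994.6 mg/kg, against 12.39, 12.43, 12.49, 12.07 and 12.28 in control. The groups did not overlap, and the change was 0.26 ± 0.09 (adjusted p = 0.109), which passed the test in 1 of 17 alternative settings, array weights (0.0136). At 62.3, 124.5, 248.6 and 497.3 mg/kg it was above control by 0.16, 0.21, 0.24 and 0.23, none of them called. The other catalytic subunit that was measured, cytochrome c1 (Cyc1), differed from control by -0.02 at 994.6 mg/kg, and Uqcrc1, the other core protein, by 0.07. The hinge protein Uqcrh lay below all control arrays in all 3 rats, with a change of -0.11 and an adjusted p of 0.454.

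Complex IV, cytochrome c oxidase, has subunits that occur as a common and a tissue-restricted isoform. Each isoform has its own probe set, so their levels are not set against each other. The common isoform Cox4i1 had 12.93, 13.23 and 13.19 at 994.6 mg/kg, against 13.10, 12.96, 13.04, 13.13 and 13.11 in control, and the groups overlapped on both sides. Its change was 0.05 ± 0.08, and that of Cox4i2, the isoform known from lung, was -0.05 ± 0.09 (adjusted p = 0.791 and 0.836). For the pair Cox6a1 and Cox6a2, the second known from heart and muscle, the changes were 0.07 ± 0.08 and 0.14 ± 0.11 (adjusted p = 0.712 and 0.522).

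Cox6b1, the common isoform of a subunit on the intermembrane side, had 12.23, 12.20 and 12.12 at 994.6 mg/kg, against 12.33, 12.39, 12.40, 12.30 and 12.33 in control. All 3 treated arrays lay below all 5 control arrays. The change was -0.17 ± 0.07 (adjusted p = 0.197), and that of the testis isoform Cox6b2 was 0.17 ± 0.10 (adjusted p = 0.405). Cox7a1, the heart and muscle isoform of its subunit, differed from control by -0.23 ± 0.11 (adjusted p = 0.26) at a mean value of 5.21 at 994.6 mg/kg and 5.45 in control. Cox7a2l, which takes part in supercomplex formation, differed from control by 0.04 ± 0.09. Cox8a and its heart and muscle isoform Cox8b differed from control by -0.01 ± 0.06 and -0.15 ± 0.11, with adjusted p-values of 0.949 and 0.53. No isoform of these pairs was called at 994.6 mg/kg, except with array weights, where Cox6b1 was lower (adjusted p = 0.0184) and Cox4i1 higher (0.0383).

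In the ATP synthase the largest change was that of Atp5pb, a subunit of the peripheral stalk. It had 13.66, 13.40 and 13.39 at 994.6 mg/kg, against 13.26, 13.40, 13.40, 13.16 and 13.22 in control. Replicate 1 alone was clearly above control, and the other 2 arrays lay close to the highest control arrays. The change was 0.19 ± 0.09 (adjusted p = 0.217). All 4 stalk subunits, grouped after the values had been seen, were above 0 with a median of 0.10, or 0.05 without replicate 1. Atp5f1c, the gamma subunit of the central rotor, had 13.19, 13.12 and 13.11 at 994.6 mg/kg, against 13.02, 13.05, 13.08, 12.83 and 12.997 in control. These groups did not overlap, and the change of 0.14 ± 0.07 had an adjusted p of 0.299. The inhibitor Atp5if1, which blocks ATP hydrolysis by the enzyme, differed from control by 0.07 ± 0.11. Its other probe sets had the opposite sign, with changes of -0.02 ± 0.11 and -0.06 ± 0.14, and none was called. No direction can therefore be given for Atp5if1.

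At 994.6 mg/kg, 7 members had all 3 arrays above all control arrays, where 6.91% of all genes did, and 10 had all 3 below, where 7.12% did. The 7 were Ndufa6, Uqcr11, Uqcrc2, Uqcrfs1, Ndufaf1, Ndufaf7 and Atp5f1c. The second probe sets of Uqcrc2 and Ndufaf7 overlapped control. The 10 were Ndufa2, Ndufb7, Ndufb9, Ndufb10, Ndufs6, Ndufv3, Uqcrh, Cox6b1, Cox7a1 and Atp5f1d, of which Ndufv3 has a second probe set of opposite sign.

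The doses roughly double at each step, so a trend was fitted as a line through the log2 values against dose rank, with control as 0 and 994.6 mg/kg as 5. Over all 20 arrays 2 of 87 members were called, both higher, where 6.47% of all genes were called in either direction and 3.9% higher. Ndufaf1 had a slope of 0.07 ± 0.02 per step (limma adjusted p = 0.0253), and Uqcrc2 had 0.06 ± 0.02 (adjusted p = 0.0343). At an unadjusted p under 0.05 there were 16 members, where 20.7% of all genes lay. Without replicate 1 of 994.6 mg/kg the adjusted p was 0.0809 for Ndufaf1 and 0.121 for Uqcrc2, and with the GAPDH 3' minus 5' difference as a covariate it was 0.0615 and 0.0923. Both calls also ended without control replicate 1 (adjusted p = 0.0644 and 0.0619) or control replicate 5 (0.0512 and 0.0755), and with dose in mg/kg in place of dose step (0.148 and 0.0751), Ndufaf1 first in each pair. The Uqcrc2 call alone ended without control replicate 2 (adjusted p = 0.0562), control replicate 4 (0.0791), replicate 3 of 62.3 mg/kg (0.0508) or replicate 1 of 497.3 mg/kg (0.0646), and after median centring (0.0545). A second probe set of Uqcrc2 had a slope of 0.16 ± 0.04 (limma adjusted p = 0.0205 over all probe sets). For that slope no alternative settings are given. Ndufaf1 was measured by 1 probe set. In a trend over the 15 treated arrays alone, none of the 87 members was called by limma, where 0.218% of all genes were called. There 2 members had an unadjusted p under 0.05, where 10.6% of all genes lay.

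Ndufaf1 encodes an assembly factor of the membrane arm of complex I that is not part of the finished enzyme. It had 6.91, 7.16, 7.13, 7.06 and 7.08 in control. It had 7.41, 7.17 and 7.08 at 62.3 mg/kg, 7.43, 7.36 and 7.35 at 124.5 mg/kg, and 7.61, 7.31 and 7.43 at 248.6 mg/kg. Values were 7.57, 7.30 and 7.16 at 497.3 mg/kg and 7.66, 7.29 and 7.35 at 994.6 mg/kg. All arrays at 124.5 mg/kg and above exceeded all 5 control arrays, the lowest by less than 0.01, but the treated means did not order by dose. The means were 7.07, 7.22, 7.38, 7.45, 7.34 and 7.43 from control to 994.6 mg/kg. The change at 994.6 mg/kg was 0.37 ± 0.11 (adjusted p = 0.0583), and it passed the test in 2 of 16 alternative settings, quantile normalization (0.0414) and array weights (0.0321). Ndufaf7, a methyltransferase that modifies a core subunit during assembly, differed from control by 0.25 ± 0.13 (adjusted p = 0.293). A second probe set of Ndufaf7 differed by 0.07 ± 0.08 (limma adjusted p = 0.724 over all probe sets), and its arrays overlapped control.

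**Figure D3:**
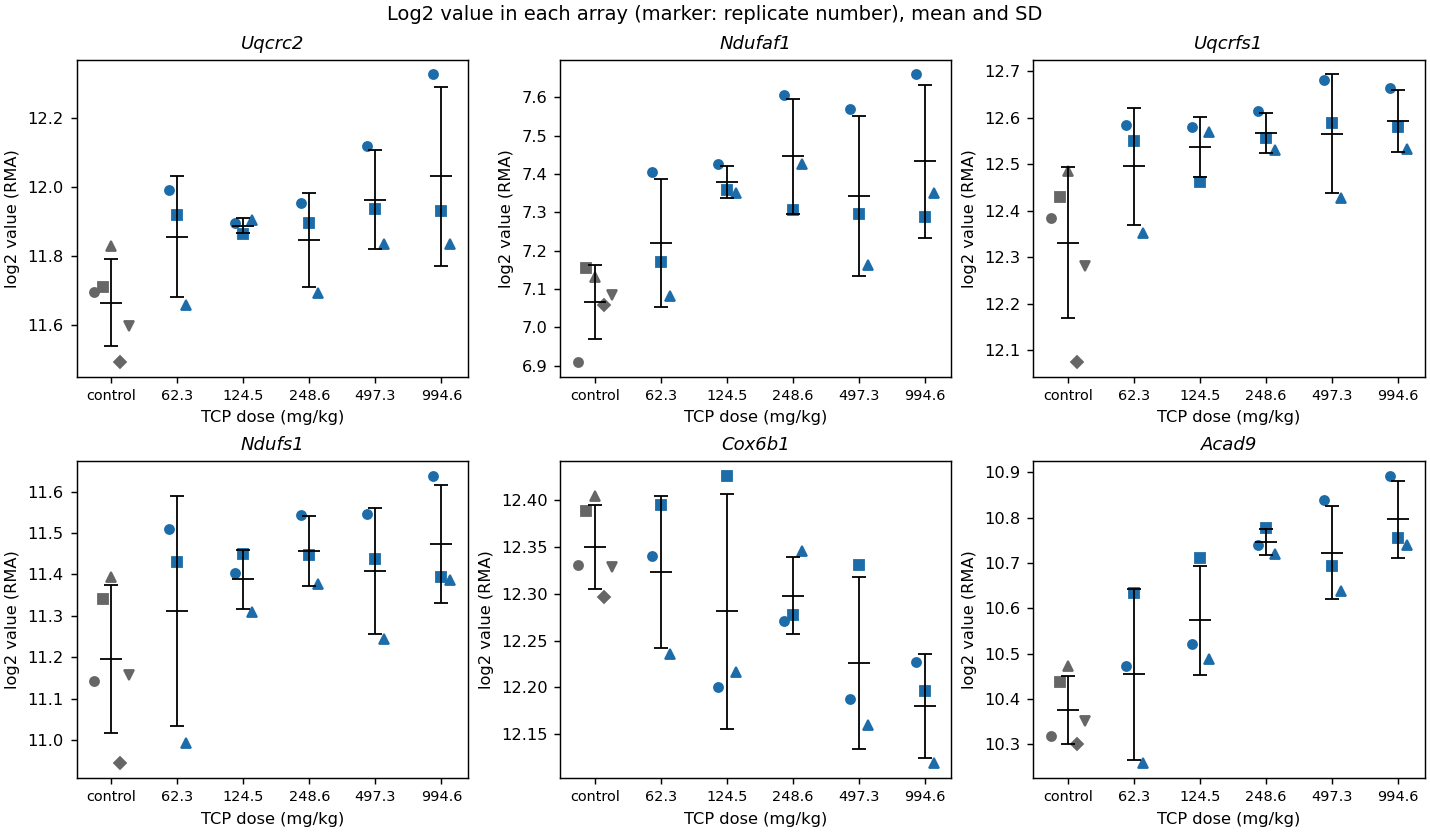
Log2 values in each array (markers by replicate number, control in grey) with mean and SD for Uqcrc2, Ndufaf1, Uqcrfs1, Ndufs1, Cox6b1 and Acad9 in control and at 5 TCP doses. Replicate 1 of 994.6 mg/kg is the highest of its group in all panels, and Acad9 lies above its 5 control arrays at 124.5 mg/kg and every higher dose.

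The promoters of both genes with a called trend are shown because they share a sequence motif that is common among the members. RefSeq promoter windows (GRCr8), from 250 bases before to 30 bases after the annotated start, were available for 78 of the 87 members. The windows below run 5' to 3' on the strand of the gene, and capitals mark the motif letters found. The Uqcrc2 window lies at chr1:184598990-184599269 on the plus strand and that of Ndufaf1 at chr3:127103991-127104270 on the minus strand.
Uqcrc2: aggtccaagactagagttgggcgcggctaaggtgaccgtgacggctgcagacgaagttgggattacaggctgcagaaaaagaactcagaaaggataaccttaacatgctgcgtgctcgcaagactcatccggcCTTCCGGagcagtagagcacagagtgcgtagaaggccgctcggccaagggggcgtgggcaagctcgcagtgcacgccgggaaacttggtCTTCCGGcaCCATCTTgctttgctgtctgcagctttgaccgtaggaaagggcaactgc
Ndufaf1: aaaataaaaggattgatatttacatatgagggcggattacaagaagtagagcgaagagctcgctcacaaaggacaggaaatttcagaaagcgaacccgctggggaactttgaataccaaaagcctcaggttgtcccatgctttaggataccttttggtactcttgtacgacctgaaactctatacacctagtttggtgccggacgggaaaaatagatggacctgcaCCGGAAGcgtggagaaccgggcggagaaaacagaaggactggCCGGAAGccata

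Capitals in both windows include CCGGAAG or its reverse complement CTTCCGG, the core recognized by ETS factors such as GABP. GABP is a known regulator of oxidative phosphorylation genes. In Uqcrc2 the core began at positions -117 and -28 from the start, and in Ndufaf1 at -24 and 19. The letters CCATCTT at -19 in Uqcrc2 are the reverse complement of the YY1 core AAGATGG. Searched on both strands, the ETS core was in 28.2% of the member windows, against 8.41% of all 33469 windows in the table. Those windows belong to 27457 genes, some with several windows, and were not matched to the members in gene type or level. The YY1 core was in 23.1% of member windows and 6.34% of all windows. The NRF1 motif, GCGCA and GCGC on either side of any 1 base, was in 19.2% of member windows and 4.14% of all, and the element AAGGTCA of estrogen-related receptors in 8.97% and 4.37%. These motifs do not overlap each other in the 2 windows shown. The ETS core was in 22 of the 78 member windows, and most of these members had no called trend, among them Cox4i1 and Ndufb7. The window of Uqcrfs1 did not hold it. A relation between the motif and the trend was not tested. A match describes letters in the window and does not show that a factor binds there.

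Genes that serve the respiratory chain outside the rule were counted from lists. Of 35 assembly factors measured, 1 was called at 994.6 mg/kg, where 4.47% of all genes were called. Their median change was 0.06, or 0.01 without replicate 1 of that dose. The called gene was Acad9, which acts in complex I assembly together with Ndufaf1 and is a member of the acyl-CoA dehydrogenase family. Acad9 had 10.32, 10.44, 10.47, 10.30 and 10.35 in control. It had 10.47, 10.63 and 10.26 at 62.3 mg/kg, 10.52, 10.71 and 10.49 at 124.5 mg/kg, and 10.74, 10.78 and 10.72 at 248.6 mg/kg. The next doses gave 10.84, 10.69 and 10.64 at 497.3 mg/kg and 10.89, 10.75 and 10.74 at 994.6 mg/kg. Every array at 124.5 mg/kg or more lay above the control arrays. The change at 994.6 mg/kg was 0.42 ± 0.09 (limma adjusted p = 0.00806), and the trend slope was 0.09 ± 0.01 per step (adjusted p = 0.000647). Without replicate 1 of 994.6 mg/kg the change was 0.37 with an adjusted p of 0.0708. Other partners in the same assembly step were not called, with changes of 0.04 for Ecsit, -0.02 for Tmem126b and -0.08 for Timmdc1.

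Of 16 regulators of mitochondrial biogenesis, 1 was called at 994.6 mg/kg, where 4.47% of all genes were called. Their median change was -0.02, or 0.01 without replicate 1 of that dose. The single changes were wide, from -0.76 for Polg2, described below, to 0.65 for Gabpb1. At an unadjusted p under 0.05 in limma there were 8 of 16, where 18.6% of all genes lay. Gabpb1, the beta subunit of the ETS factor GABP, had 7.10, 7.24, 7.39, 7.11 and 7.35 in control. It had 7.28, 7.31 and 7.61 at 62.3 mg/kg, 7.26, 7.82 and 7.04 at 124.5 mg/kg, and 7.47, 7.36 and 7.39 at 248.6 mg/kg. At 497.3 mg/kg it had 7.85, 8.09 and 8.16, and at 994.6 mg/kg 7.68, 8.17 and 7.82. The arrays of the 2 highest doses lay above all control arrays. Its change was 0.79 ± 0.15 at 497.3 mg/kg (adjusted p = 0.0132) and 0.65 ± 0.15 at 994.6 mg/kg (adjusted p = 0.0146). The call at 497.3 mg/kg was lost without replicate 2 (0.76, adjusted p = 0.0655) or replicate 3 of that dose (0.73, adjusted p = 0.0814), and the call at 994.6 mg/kg without replicate 2 of that dose (0.51, adjusted p = 0.0749). Its DNA-binding partner Gabpa differed from control by 0.42 ± 0.17 (adjusted p = 0.178). The coactivator Ppargc1a differed from control by -0.02 ± 0.24, Nrf1 by -0.02 ± 0.17, Tfam, the packaging factor of mitochondrial DNA, by 0.27 ± 0.10 (adjusted p = 0.116), and Esrra by -0.12 ± 0.08, none of them called.

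In the trend over all 20 arrays 3 of 16 regulators were called, where 6.47% of all genes were called. These were Gabpb1 (slope 0.14 ± 0.03, adjusted p = 0.00334) and Ssbp1, the single-strand binding protein of mitochondrial DNA (0.06 ± 0.02, adjusted p = 0.0329), both higher. The gene called lower was Polg2, the accessory subunit of the mitochondrial DNA polymerase, with a slope of -0.17 ± 0.05 (adjusted p = 0.0432). The Ssbp1 call was lost in 6 fits with 1 array left out, those without control replicate 1, 4 or 5, replicate 1 or 2 of 497.3 mg/kg, or replicate 1 of 994.6 mg/kg (adjusted p = 0.107). The Polg2 call was lost in 11 such fits, without control replicate 1, 2 or 4, replicate 2 or 3 of 62.3 mg/kg, replicate 1 or 3 of 248.6 mg/kg, replicate 1 or 3 of 497.3 mg/kg, or replicate 2 or 3 of 994.6 mg/kg. With the GAPDH covariate the adjusted p of Polg2 was 0.161. Ssbp1 and Polg2 were named after their values were seen.

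Single genes were called at 994.6 mg/kg in other mitochondrial lists, all of them higher, where 2.5% of all genes were called higher. Of 8 carriers and uncouplers 1 was called, Vdac2, a porin of the outer membrane. It had 12.18, 12.08 and 12.24 at 994.6 mg/kg, against 11.83, 11.83, 11.94, 11.74 and 11.79 in control, with no overlap. Its change was 0.34 ± 0.07 (adjusted p = 0.00628). Of 14 electron carriers and coenzyme Q enzymes 1 was called, Etfa, a subunit of the electron transfer flavoprotein that feeds electrons of fatty acid oxidation into the chain (0.32 ± 0.09, adjusted p = 0.0455). The partner subunit Etfb went the other way and was not called. It had 12.44, 12.42 and 12.41 at 994.6 mg/kg, against 12.53, 12.48, 12.55, 12.47 and 12.53 in control. Etfdh, in the same list, overlapped control and was not called. Etfb and Etfdh were named after their values were seen. Of 11 citric acid cycle genes 1 was called, Dlst, a subunit of the oxoglutarate dehydrogenase complex (0.33 ± 0.08, adjusted p = 0.0267). Without replicate 1 of 994.6 mg/kg, Etfa differed from control by 0.22 (adjusted p = 0.312) and Dlst by 0.24 (adjusted p = 0.222).

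The mitochondrial ribosome, which translates the subunits encoded in mitochondrial DNA, had 3 of 73 genes called at 994.6 mg/kg, all higher, where 2.5% of all genes were called higher. Its median change was 0.09, and 15 of the 73 had an unadjusted p under 0.05 in limma, where 18.6% of all genes did. Without replicate 1 of that dose the median was 0.03 and none of the 73 was called by limma. The share of all genes called without that array is not given here. Examples of the called genes were Mrps18b (0.48 ± 0.12, adjusted p = 0.0307) and Mrpl30 (0.33 ± 0.09, adjusted p = 0.0427). Without replicate 1 of that dose their adjusted p-values were 0.16 and 0.211. At 248.6 mg/kg the median change of this list was 0.11 with 68 of 73 genes above 0, and none was called by limma, while 12 had an unadjusted p under 0.05, where 6.65% of all genes did. Of 57 cytosolic ribosomal protein genes 1 was called, Rps4y2 (0.58 ± 0.16, adjusted p = 0.0464), beside the same 2.5% of all genes called higher, and their median change was 0.05. Without replicate 1 of that dose Rps4y2 had an adjusted p of 0.191.

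The median subunit levels of single arrays were spread most widely at 62.3 and 497.3 mg/kg. The median over the 79 subunits of each array's difference from the control mean ran from -0.06 to 0.05 in the 5 control arrays. In treated arrays it ran from -0.08 in replicate 3 of 62.3 mg/kg, with 19% of subunits above the control mean, to 0.11 in replicate 1 of 497.3 mg/kg, with 72.2% above. Replicate 2 of 62.3 mg/kg was at 0.10, so the lowest dose held arrays to both sides, while the 3 arrays at 248.6 mg/kg were at 0.05, 0.04 and 0.02. At 62.3 mg/kg, replicates 2 and 3 stood at 0.13 and -0.10 for the 73 mitochondrial ribosomal genes, and at 0.04 and -0.01 for all genes. At 994.6 mg/kg the 3 arrays had subunit medians of 0.04, -0.02 and 0.01, all inside the control range.

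**Figure D4:**
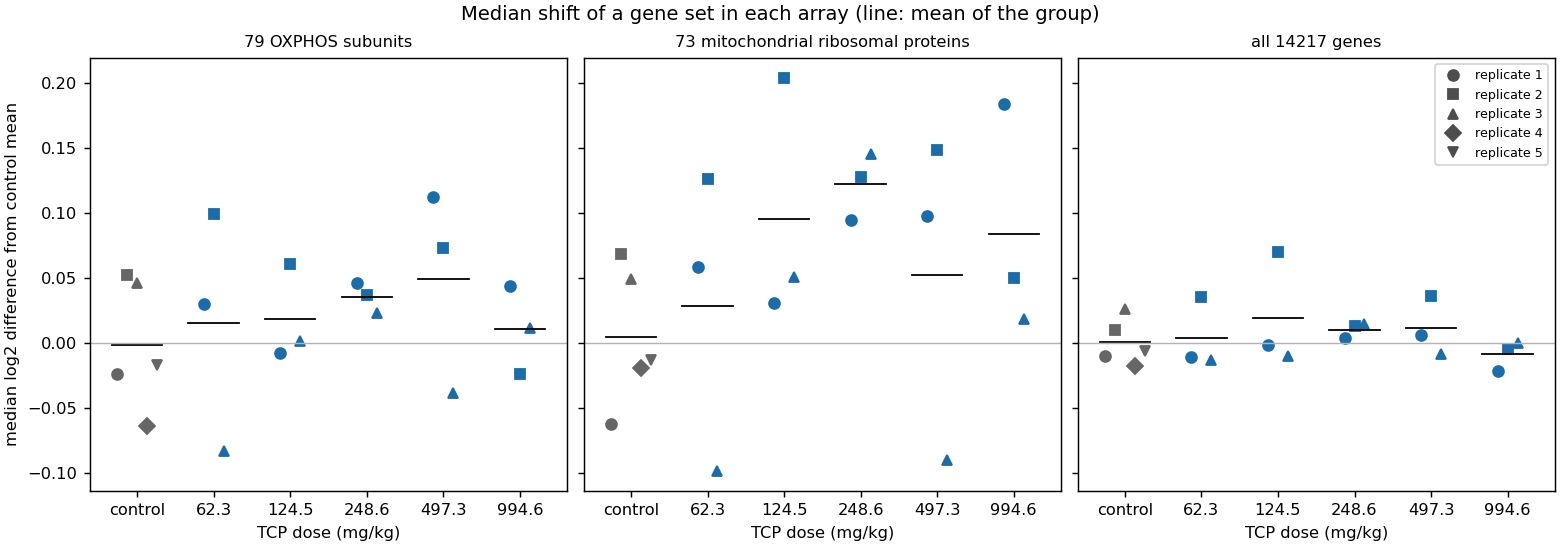
Median difference from the control mean (log2 scale) in each array over the 79 subunits, the 73 mitochondrial ribosomal genes and all 14217 genes, by dose, with group means as lines. The subunit medians range from -0.08 to 0.11, and in that panel every dose group overlaps the control arrays.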

How the data were processed

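Liver RNA of 20 rats was hybridised to 1-colour Affymetrix expression arrays, and the authors deposited log2 values. The submitters' processing notes name RMA, without a version or the set of arrays normalized together. The range of values was 2.74 to 15.4. RMA makes the distributions of arrays similar, so each change is measured against most other genes. The medians of the deposited arrays were not identical and ran from 6.31 to 6.41. No detection calls were used, and the number of arrays limits the precision. Of 31042 probe sets that are not controls, 20826 had 1 gene symbol in the platform annotation, 436 had several and 9780 are unnamed here. Current RefSeq symbols were assigned by gene identifier, which left 14217 genes, each with its probe set of highest mean. No filter on low values was applied.

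In R 4.3.3, limma 3.58.1 (functions lmFit, contrasts.fit and eBayes) estimated a mean for each dose group from all 20 arrays. Calls required an adjusted p under 0.05 by the Benjamini-Hochberg method over 14217 genes. Errors are standard errors from limma, and the fit was tested on simulated data. The labels assign separate rats to the groups.

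The members and lists were chosen with earlier results of these data known. Named genes were, per complex and for the Ndufaf factors, the called members with the largest change at 994.6 mg/kg or the 2 largest where none was called, all Sdh genes, the isoform pairs, and up to 2 called genes of each other list. Core, accessory and stalk groupings, and genes said to be singled out, came later. Promoter windows came from a RefSeq table (GRCr8), matched by gene identifier.

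Alternatives were a minimum change, the mean of all probe sets, quantile normalization, median centring, genes above the median of all genes only, other eBayes options, array weights, a replicate block, the GAPDH covariate, other dose scales, a fit of 2 groups only and each array left out. Repeats for single genes in the trend, for a second Uqcrc2 probe set, for genes outside the rule and for list medians without replicate 1 of 994.6 mg/kg or without Ndufa4 and Ndufa4l2 were added after the data were seen.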

Additional observations from a re-analysis of the deposited data

Results flagged for a closer look

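In control, Cox6a1, the common isoform of a cytochrome c oxidase subunit, was at 12.52 in replicate 4, while the other 4 arrays lay between 12.73 and 12.79. Cox6a2, the heart and muscle isoform, was at 5.05 in replicate 1, with the other 4 between 5.22 and 5.26. Both arrays lay further from their group than Dixon's 95% limit allows. The control values of 36 measures, genes and array summaries, were examined, and chance sets apart about 1 group in 20. Without control replicate 4 the difference of Cox6a1 at 994.6 mg/kg from control was 0.02, and without control replicate 1 that of Cox6a2 was 0.10, and neither was called.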

How the results depend on the processing

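The count of members called at 994.6 mg/kg was 0 and became 1 with the mean of all probe sets, among genes above the median mean value and with trended robust eBayes, in each case Uqcrc2. It was 3 with quantile normalization (2 higher, 1 lower) and 14 with array weights (4 higher, 10 lower), where 20% of all genes were called, against 4.47% without the weights. It ranged from 0 to 1 with 1 array left out, the 1 being Uqcrc2 without replicate 3 of 994.6 mg/kg. The count of 2 in the trend over all 20 arrays became 6 with quantile normalization (3 higher, 3 lower), 6 with array weights (3 higher, 3 lower), 5 with trended robust eBayes, 4 among genes above the median mean value (where Ndufaf1 was not included), 1 after median centring, and 0 with the GAPDH covariate, with dose in mg/kg and with the replicate block. With 1 array left out it ranged from 0 to 3. With quantile normalization and with array weights the 3 lower were Cox6b1, Ndufb5 and Ndufv3, whose second probe set had the opposite sign. Ndufb5 was also called lower with trended robust eBayes and among genes above the median mean value. It was called without control replicate 1 or replicate 3 of 62.3 mg/kg as well. Except with array weights at 994.6 mg/kg, the share of all genes called under these settings is not given, so the counts do not set the members apart. The counts at 62.3, 124.5, 248.6 and 497.3 mg/kg and in the trend over treated arrays stayed 0 under every alternative run. The replicate numbers did not pair the arrays, since deviations of same-numbered arrays correlated between -0.38 and 0.37. With the number as a block the count was 0 at 994.6 mg/kg and 0 in the trend. For the 25 named members at 994.6 mg/kg, 406 of 418 values kept their side of the threshold, 12 passed it and 0 turned a called direction. Of the genes outside the rule at 994.6 mg/kg, Vdac2 lost its call in 1 of 17 settings, Acad9 in 1, Gabpb1 in 2, Dlst in 6, Mrps18b in 7, Etfa in 10, Rps4y2 in 10 and Mrpl30 in 11. The causes of these differences were not tested. Groups of 3 arrays and the absence of detection calls limit what can be said of members with low values, such as Cox7a1, Cox6b2, Cox8b and Cox4i2.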

Other observations

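In the dose trend over all 20 arrays, 2 of 35 assembly factors outside the rule were called, both higher, where 3.9% of all genes were called higher. Beside Acad9 this was Cox15, an enzyme of heme A synthesis for cytochrome c oxidase, with a slope of 0.05 ± 0.01 per dose step (limma adjusted p = 0.036). Of 14 electron carriers and coenzyme Q enzymes 2 were called, Etfa and Coq4, which takes part in coenzyme Q synthesis (0.05 ± 0.01, adjusted p = 0.0296). Of 11 citric acid cycle genes 2 were called, Dlst and Idh3b, a subunit of the NAD-dependent isocitrate dehydrogenase (0.06 ± 0.01, adjusted p = 0.00855). All of these were higher, as were 4 of 73 mitochondrial and 2 of 57 cytosolic ribosomal protein genes, counts that were 1 and 0 without replicate 1 of 994.6 mg/kg. The share of all genes called without that array is not given, so the fall in these counts is not a result about the ribosomal genes. Without that array the limma adjusted p was 0.0936 for Cox15, 0.0549 for Coq4, 0.0796 for Etfa and 0.0936 for Dlst. Leaving out 1 array ended the call of Cox15 in 8 of 20 fits (control replicates 1, 4 and 5, replicate 3 of 62.3 mg/kg, replicates 1 and 2 of 497.3 mg/kg and replicates 1 and 2 of 994.6 mg/kg). It ended that of Coq4 in 4 (control replicates 2 and 3, replicates 1 and 3 of 994.6 mg/kg), Dlst in 4 (control replicates 1, 2 and 4, replicate 1 of 994.6 mg/kg) and Etfa in 3 (control replicates 1 and 4, replicate 1 of 994.6 mg/kg). The trend calls of Idh3b, Acad9 and Gabpb1 held in 30 of 30 alternative settings. Cox15, Coq4 and Idh3b were named after their values were seen.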
